A study of Mus musculus with 16 samples.

Results

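The genes described here are those of the translation initiation factors and of the aminoacyl-tRNA synthetases, read from maps of RNA polymerase II (Pol II) and of monoubiquitylated histone H2B (H2Bub1) in mouse cells without ATXN7L3. Members were taken by symbol from the GENCODE M21 annotation, as autosomal protein-coding genes whose name begins with Eif and a digit from 1 to 6, or is a single letter followed by ars or ars2. The rule found 86 genes among 20807, of which 52 carry an initiation factor name and 34 a synthetase name. By role they comprised 11 genes of scanning and start site choice, 5 of eIF2B, 4 eIF2 kinases, 14 of eIF3, 12 of the cap-binding eIF4 factors, 4 regulators of eIF4E, 2 of eIF5A, 17 cytosolic synthetases and 17 mitochondrial synthetases. These groups were set by gene symbol and are labels only. The scanning group also holds Eif6 and Eif1ad, and the cap-binding group holds every Eif4a symbol, Eif4a3 among them.

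ATXN7L3 is an adaptor protein that activates the proteases that take ubiquitin off H2B, and the study asked how chromatin and Pol II respond when it is missing. Mouse embryonic stem cells (mESCs) and mouse embryonic fibroblasts (MEFs) were either Atxn7l3+/+ (WT) or Atxn7l3-/- (KO), all on a DBA/2 x C57BL/6 background and all without treatment. The mESCs had been derived from blastocysts of crosses between heterozygous mice, grown on feeders for the first passages and then without them, with leukaemia inhibitory factor, serum and a pair of kinase inhibitors. The MEFs came from E10.5 embryos of the same kind of cross, each culture from an individual embryo, and were grown in serum. The null allele is constitutive, so no acute loss was measured. Chromatin was precipitated with an antibody to the Pol II subunit RPB1 or to H2Bub1, with 1 library for each of the 8 combinations of cell type, genotype and antibody. No test between genotypes was therefore possible, every difference given describes these libraries, and each library comes from a bulk population, in which fewer cells with a peak and less signal per cell cannot be told apart.

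Initiation begins when eIF4F, built of the cap-binding protein eIF4E, the helicase eIF4A and the scaffold eIF4G, loads the small ribosomal subunit onto an mRNA with the help of eIF3. The ternary complex of eIF2, GTP and initiator tRNA then finds the start codon, eIF2B recharges eIF2, and kinases that phosphorylate eIF2 slow this cycle under stress. The synthetases join each amino acid to its tRNA. Separate nuclear genes mostly serve the cytosol and the mitochondrion, and several cytosolic synthetase genes are targets of ATF4, the transcription factor of the eIF2 stress response. H2Bub1 is laid down behind transcribing Pol II and is known as a mark of active gene bodies.

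The promoters of 64 of the 86 members were found in the RefSeq table of GRCm38.p6, which gives 250 bases before and 50 after each start. Of these, 3 held TGATGNAAT on either strand, a form of the amino acid response element that ATF4 binds, and all 3 were cytosolic synthetase genes: Aars, Gars and Iars, for alanine, glycine and isoleucine. They are shown because Aars and Gars had the lowest KO to WT ratios of Pol II among the synthetases with a peak in all 4 lists, in MEFs and in mESCs respectively. The fourth stretch, of Eif3m, a subunit of eIF3, comes from the 30 promoters with CCGGAA, the core of ETS family sites. It holds 3 matches, more than most of them. Each stretch runs on the strand of the gene from base -250 to base +20 from the RefSeq start. Capitals mark TGATGNAAT, which in all 3 genes lies on the reverse strand, and the palindrome CACGTG in Aars and Iars, TGATGNAAT alone in Gars, and CCGGAA or its reverse TTCCGG in Eif3m.
Aars, chr8:111033592-111033861, plus strand: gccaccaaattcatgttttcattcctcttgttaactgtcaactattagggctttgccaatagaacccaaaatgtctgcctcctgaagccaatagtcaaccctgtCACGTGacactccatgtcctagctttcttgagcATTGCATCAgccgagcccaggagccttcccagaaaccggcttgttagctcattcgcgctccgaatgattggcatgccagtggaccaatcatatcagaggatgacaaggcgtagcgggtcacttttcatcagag
Gars, chr6:55037751-55038020, plus strand: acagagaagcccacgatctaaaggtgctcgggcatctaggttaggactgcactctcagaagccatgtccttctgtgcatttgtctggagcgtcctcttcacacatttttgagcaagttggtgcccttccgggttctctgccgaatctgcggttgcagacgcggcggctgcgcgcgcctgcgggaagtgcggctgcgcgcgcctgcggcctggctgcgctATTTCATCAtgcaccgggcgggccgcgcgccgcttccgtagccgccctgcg
Iars, chr13:49681880-49682149, plus strand: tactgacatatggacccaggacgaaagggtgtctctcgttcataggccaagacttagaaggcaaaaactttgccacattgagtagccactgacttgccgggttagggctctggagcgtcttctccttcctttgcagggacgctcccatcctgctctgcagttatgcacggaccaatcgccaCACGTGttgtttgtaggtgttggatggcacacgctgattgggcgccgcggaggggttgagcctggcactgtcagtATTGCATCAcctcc
Eif3m, chr2:105017008-105017277, minus strand: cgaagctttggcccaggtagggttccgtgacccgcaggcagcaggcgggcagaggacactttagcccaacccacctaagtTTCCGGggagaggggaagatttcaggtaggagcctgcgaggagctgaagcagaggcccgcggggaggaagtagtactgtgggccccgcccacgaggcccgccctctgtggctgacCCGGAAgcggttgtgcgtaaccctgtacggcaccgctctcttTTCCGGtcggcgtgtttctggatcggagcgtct

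The element began 113 bases before the RefSeq start in Aars, 31 bases before it in Gars and at base 7 after it in Iars. The RefSeq start of Aars lay 698 bases from the start of its GENCODE record, and the Pol II summits of the 4 lists were 740 to 969 bases downstream of the latter. Across promoters the element was rare, with 0.835% of 15687 autosomal promoters against 4.69% of the members matched. With a Pol II promoter peak in all 4 lists required, 3 of 41 members (7.32%) and 15 of 4303 genes (0.349%) held it. CCGGAA was in 30 of the 64 members and 3141 of the 15687 promoters, but in 36.6% and 33.0% when only promoters with Pol II in all 4 lists were counted. CACGTG, the E-box read by MYC and USF proteins, was in 18.8% of members and 8.10% of all promoters, and in 19.5% and 11.6% of those with Pol II in all 4 lists. All these letters were searched on both strands. CCAAT stood at 40.6% and 38.4%, AAGATGGC at 7.81% and 3.25%, and TATAAA at 7.81% and 12.9%. With Pol II in all 4 lists the order turned for CCAAT, to 34.1% and 38.2%, and for TATAAA, to 7.32% and 5.60%, and AAGATGGC stood at 7.32% and 6.41%. A start within 20 bases of a C followed by at least 4 pyrimidines, the loose form of the terminal oligopyrimidine tract searched on the gene strand, was in 48.4% of members and 49.9% of all promoters, and in 39.0% and 48.5% of those with Pol II in all 4 lists. These matches describe letters in a window and say nothing about binding.

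The lists differed in size. Read depth is unknown, and its part in this was not tested. Pol II gave 17074 peaks in WT and 11963 in KO mESCs, and 45870 and 32232 in MEFs, whereas H2Bub1 gave 40979 and 48952 in mESCs and 19725 and 28856 in MEFs. The pluripotency genes Pou5f1, Sox2 and Nanog had a Pol II promoter peak in both mESC lists and in neither MEF list, and Col1a1, Col1a2, Thy1 and Twist2 the reverse, while Tfcp2l1 was also called in KO MEFs with a fold of 7.08. Atxn7l3 itself kept a promoter peak in all 4 lists, and H2Bub1 peaks covered 100% of it in WT mESCs against 62.5% in KO, but 22.0% in WT MEFs against 65.3% in KO. In the targeting construct loxP sites lay around exons 2 to 12, though the methods do not state which exons the null allele lacks. Of the 2454 bp between exons 3 and 12 of the 13-exon transcript (chr11:102292056-102294509) H2Bub1 peaks covered 100% in WT mESCs and 0% in KO mESCs. In MEFs that stretch was covered over 5.38% in WT and 0% in KO, so the KO coverage of the gene came from outside it. Pol II peaks covered 20.3% and 8.92% of it in WT and KO mESCs and 2.44% and 0% in MEFs. Of the 3 sex-linked genes that fit the naming rule, Eif2s3y on the Y chromosome had a promoter peak in WT MEFs alone. The Y-linked genes Ddx3y, Kdm5d and Uty were also called there alone. Eif2s3x and Eif1ax had no peak in WT mESCs. Xist, on the X chromosome, was called in both MEF lists, with folds of 10.6 in WT and 16.8 in KO, and in neither mESC list. The WT MEF list thus held Y-linked and Xist peaks together, and the sex of the embryo and the genotype cannot be told apart.

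A Pol II promoter peak was nearly universal among the members in MEFs and frequent in mESCs. In MEFs 84 members had a peak within 1000 bp of the transcription start site (TSS) in WT, beside 55.3% of all genes, 83 had one in KO, beside 52.3%, and 83 had one in both, beside 50.8%. In mESCs the counts were 61 in WT against a background of 35.3%, 58 in KO against 32.1% and 54 in both against 27.2%. The same 54 members had a peak in all 4 lists, where the share over all genes was 26.1%. No member was called in mESCs and missed in MEFs, and 19 were called in MEFs but in neither mESC list. The share of all genes called in MEFs alone is not given here. More of all genes were called in MEFs than in mESCs, and the MEF Pol II lists were the longer ones. By fold, the leading ones of these 19 were Eif3c, Wars2, Mars, Fars2, Eif3l and Eif4e3, with 22.6, 21.2, 19.1, 15.9, 15.3 and 14.4 in the higher MEF list.

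Calls in a single genotype were few. In mESCs 7 members had a promoter peak in WT only, beside 8.04% of all genes, and 4 in KO only, beside 4.85%, shares close to the background. The former were Kars, Eif2b1, Eif3e, Eif4ebp3, Pars2, Rars2 and Sars2, all with a WT fold of 3.67 to 4.68, below the median of 4.79 over the members called there. The latter were Cars, Eif3f, Eif3i and Eif4ebp2, with a KO fold of 3.41 to 4.91. In MEFs the one WT-only call was Eif3j2, with a fold of 7.28, beside 4.43% of genes, and there was no KO-only call, beside 1.51%. Eif3j2, a paralog of Eif3j1, had no H2Bub1 peak in any list. Neither Eif4e1b, the form of eIF4E known from oocytes, nor Eif4g1 had a promoter peak in any list. Eif4e1b also had no Pol II body peak and no H2Bub1, while Eif4g1, the main scaffold of eIF4F, had 2, 2, 8 and 4 Pol II body peaks in WT mESCs, KO mESCs, WT MEFs and KO MEFs. The RefSeq start of Eif4g1 lies 4414 bases from the start of the GENCODE record, and with any annotated TSS it was called in both genotypes of both cell types.

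The height of a promoter peak is given as fold, the ratio of its pileup to the local background of the same library. In WT MEFs the members' folds had a median of 15.7 (95% interval 14.4 to 18.6), and the median member stood at percentile 62.7 of all genes with a peak. In KO MEFs the median was 13.1 and the percentile 58.5. The mESC members had medians of 4.79 in WT and 4.39 in KO, at percentiles 59.3 and 46.0. The highest member in mESCs was Eif4a2, a helicase paralog, with 20.8 in WT and 17.1 in KO, and it also led in WT MEFs with 42.1, against 23.9 in KO. Eif1, whose protein guards start codon choice, gave 12.2, 13.7, 29.4 and 44.4 in WT mESCs, KO mESCs, WT MEFs and KO MEFs, and its KO MEF value was the highest member value there.

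In MEFs the promoter fold was lower in KO at 60 of 83 members with a peak in both genotypes and higher at 23 (27.7%). Over all genes with a peak in both, 32.5% were higher in KO. On the log2 scale the KO to WT ratio had a median of -0.27 over the members (interval -0.44 to -0.17) and -0.22 over all 10576 such genes, so the members and all genes had similar medians. In mESCs 28 of 54 members were higher in KO, beside 52.2% of genes, and the median log2 ratio was 0.01 (interval -0.26 to 0.16) against 0.02.

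**Figure D1:**
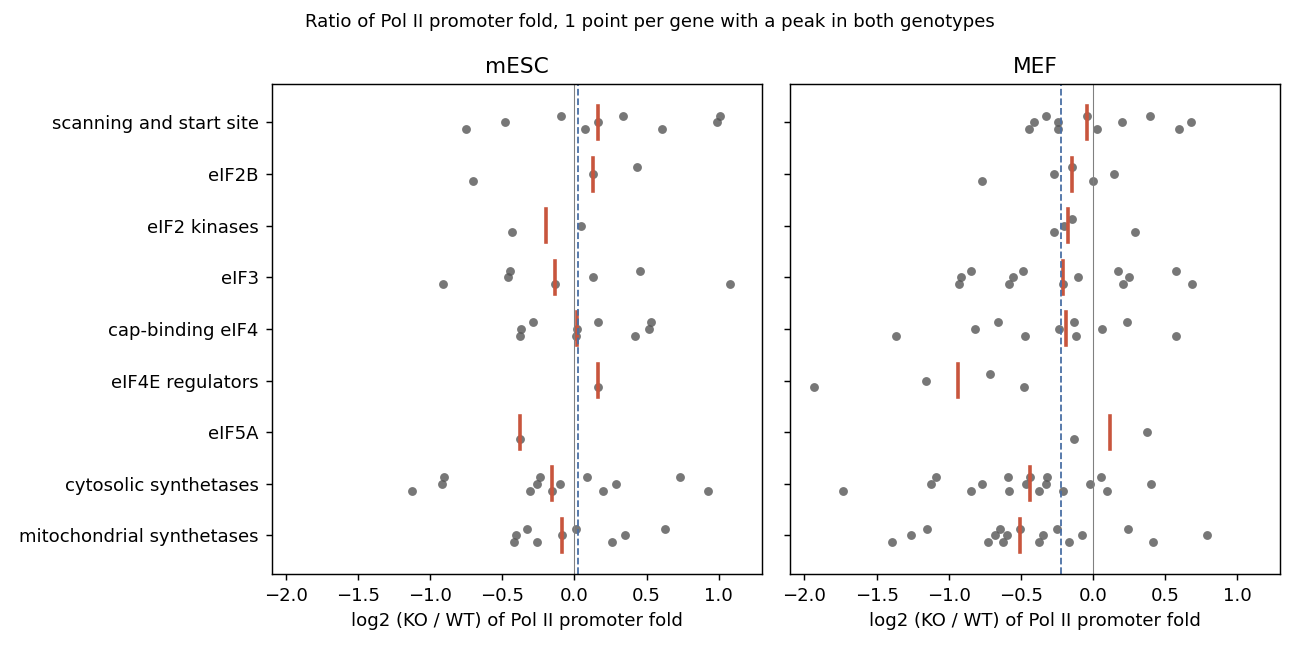
Log2 ratio of KO to WT Pol II promoter fold in mESCs (left) and MEFs (right), 1 point per member with a peak in both genotypes, by role. Red bars are medians of a role and the blue dashed line is the median over all autosomal genes with a peak in both, at 0.02 in mESCs and -0.22 in MEFs; both synthetase groups and the eIF4E regulators have medians left of that line in MEFs, the last including Eif4ebp3.

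The median ratios of the roles in MEFs spanned both sides of that of all genes, and differences between roles were not tested. Of the 34 synthetase genes 6 were higher in KO, beside the 32.5% of all genes, and 28 lower, 14 of 17 cytosolic with a median log2 ratio of -0.43 and 14 of 17 mitochondrial with -0.50. Of the 49 initiation factor names 17 were higher and 32 lower, close to the share over all genes, with a median of -0.20. Scanning and start site genes had 6 of 11 lower and a median of -0.04, eIF3 8 of 13 and -0.20, and the cap-binding factors 7 of 10 and -0.18. The 7 synthetase genes of the multi-synthetase complex listed here had 6 lower and a median of -0.58. In mESCs the cytosolic synthetases had 8 of 13 lower and a median of -0.16, and the mitochondrial ones 5 of 9 and -0.08.

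**Figure D2:**
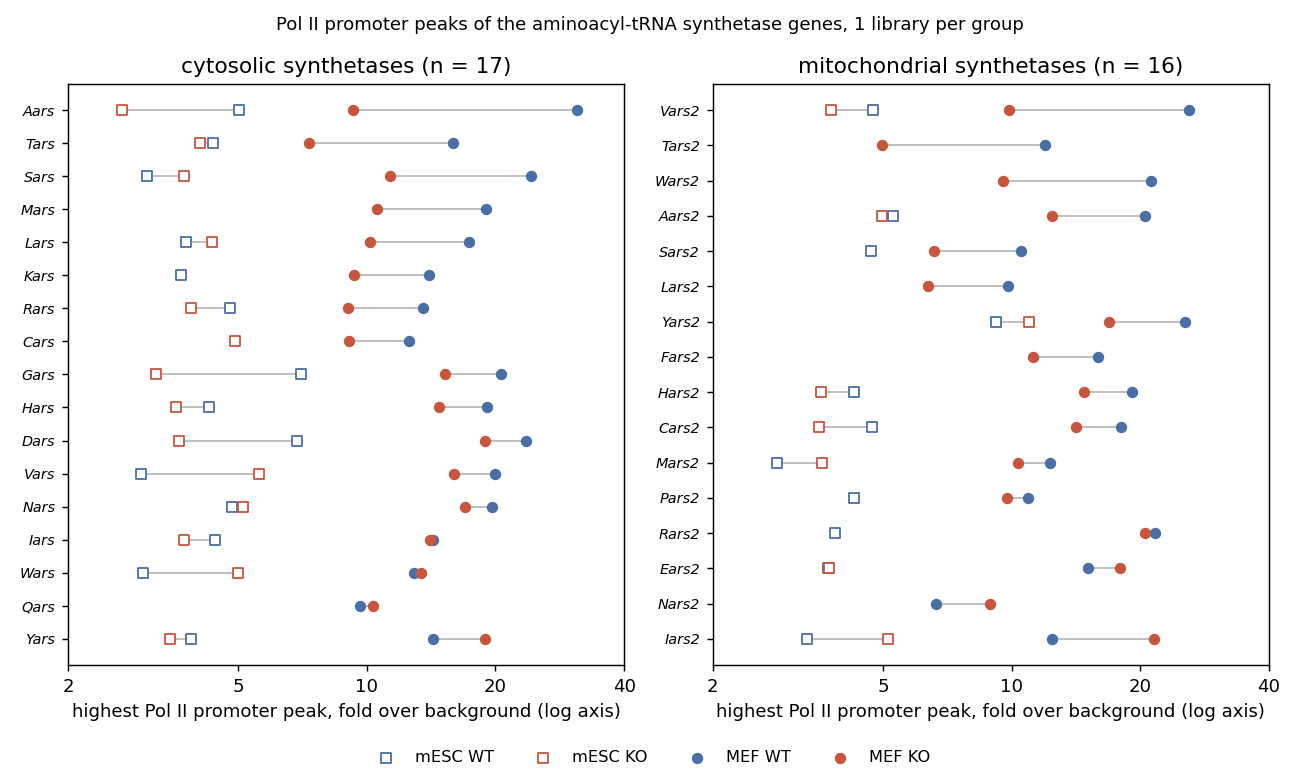
Highest Pol II promoter peak of the 17 cytosolic and 16 of the mitochondrial synthetase genes as fold over background on a log axis, cytosolic on the left and mitochondrial on the right, for mESCs (open squares) and MEFs (filled circles), WT in blue and KO in red, 1 library each. In MEFs 14 of the cytosolic and 13 of the mitochondrial genes drawn have the KO point left of the WT point, the widest gap being that of Aars, from 31.0 to 9.30.

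Aars (chr8:111033144-111057664, plus strand), which charges alanine, had a promoter fold of 5.03 in WT against 2.68 in KO mESCs, and of 31.0 against 9.30 in MEFs. It was lower in KO in both cell types, by log2 ratios of -0.91 and -1.74, the latter the second lowest of all members in MEFs. Gars (chr6:55038007-55079500, plus strand), for glycine, had 7.01, 3.21, 20.6 and 15.2 in the same order, and its mESC log2 ratio of -1.13 was the lowest member value. Iars (chr13:49682100-49734267, plus strand) had 4.41, 3.73, 14.3 and 14.1, so that its MEF values were nearly equal. These ratios were known when the element was chosen, so they describe the 3 genes and support nothing about it. Of the other 12 genes with this element and a peak in all 4 lists, 5 were lower in KO mESCs and 10 in KO MEFs, with medians of 0.16 and -0.38. In mESCs, then, those 12 genes lay on either side of zero.

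Other synthetases with wide differences in MEFs were Tars, for threonine, from 15.9 to 7.31, and Sars, for serine, from 24.2 to 11.4. Among the mitochondrial forms, Vars2 went from 26.0 in WT to 9.88 in KO, a log2 ratio of -1.40, and Wars2 from 21.2 to 9.57. Tars2 went from 12.0 to 4.98, but its MEF summits lay 1561 bp or more from the TSS of the record. In the opposite direction Iars2 had 12.4 in WT and 21.5 in KO MEFs and 3.32 and 5.13 in mESCs, the highest MEF log2 ratio at 0.79. Yars, for tyrosine, was the cytosolic synthetase with the highest MEF log2 ratio, 14.3 against 18.9, but 3.87 against 3.47 in mESCs. Dars, for aspartate, had 6.86 and 3.64 in mESCs, a log2 ratio of -0.91, and 23.6 and 18.9 in MEFs. Hars and its mitochondrial partner Hars2 are divergent genes with starts 197 bp apart and shared 1 peak in every list, with folds of 4.28, 3.58, 19.1 and 14.7.

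Wars, for tryptophan, was higher in KO mESCs, 3.00 against 5.00, and nearly level in MEFs, 12.9 against 13.4. Its WT mESC peak was weak, at percentile 8.08 of all genes with a peak. With equal numbers of peaks in WT and KO it was not called in both mESC genotypes. Mars, for methionine, had no mESC promoter peak and MEF folds of 19.1 and 10.6. Kars, for lysine, was called in WT mESCs alone at 3.67 and went from 14.0 to 9.32 in MEFs. Of the other synthetase and scaffold genes of the pathway, Eprs, Farsa, Farsb, Tarsl2, Aimp1, Aimp2 and Eef1e1, 3 of 7 were lower and 4 higher in KO MEFs, with a median log2 ratio of 0.10. The lower ratios were thus not shared by all genes of tRNA charging.

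The peaks read at the 4 eIF4E regulators were all lower in KO MEFs, but that of Eif4ebp3 cannot be assigned to it, which leaves 3. Eif4ebp1 (chr8:27260329-27276674, plus strand), which encodes the eIF4E-binding repressor controlled by mTOR and is itself a known ATF4 target, had 6.88 in WT against 7.69 in KO mESCs, and 30.3 against 13.6 in MEFs. The KO value was thus the lower one in MEFs and the higher one in mESCs. Eif4ebp2 had 18.6 and 11.3 in MEFs, and Eif4enif1, which carries eIF4E into the nucleus, 5.21 and 3.75. Eif4ebp3 gave 25.9 and 6.76, the lowest MEF log2 ratio at -1.94, but it overlaps another protein-coding gene and its MEF summits were 6155 and 1317 bp past its TSS, with the start of Sra1 6755 bp away.

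The cap-binding factors and their partners spread in both directions. Eif4e, the cap-binding protein, had 6.01, 4.62, 15.9 and 16.6 in WT mESCs, KO mESCs, WT MEFs and KO MEFs, hence lower in KO mESCs and level in MEFs. Eif4a1, the main helicase, had 14.6, 16.4, 32.3 and 20.4, and Eif4g2, a scaffold used in cap-independent initiation, 15.4, 15.6, 28.1 and 25.6. Eif4g3 was higher in KO in both, 3.95 and 5.72 in mESCs and 18.6 and 27.6 in MEFs, while Eif4e3 went from 14.4 to 5.60 in MEFs and was not called in mESCs.

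Among the genes of the eIF2 cycle, Eif2s1, the subunit phosphorylated under stress, had folds of 4.28, 4.01, 15.1 and 11.1. Eif2s2 (chr2:154871410-154892935, minus strand), the beta subunit, had 7.14, 14.4, 15.4 and 12.2, the second highest mESC log2 ratio at 1.01 with the opposite sign in MEFs. Eif5b, which joins the ribosomal subunits, also had a high mESC ratio, 2.88 against 5.72, and Eif5, the GTPase activator of eIF2, 6.06 against 9.21. Eif2b5, the catalytic subunit of eIF2B, had 8.86, 5.44, 18.2 and 16.5. Of the kinases, Eif2ak3 (PERK) had 4.86, 3.60, 15.4 and 12.7, and Eif2ak4 (GCN2) was called in MEFs alone with 12.2 and 10.6. Eif1a had 9.71 in WT and 15.5 in KO MEFs but 5.67 and 4.06 in mESCs. Eif5a, an elongation and termination factor despite its name, had 7.94, 6.10, 15.8 and 14.5, and Eif6, which keeps the ribosomal subunits apart, was called in MEFs alone with 11.0 and 12.7.

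Within eIF3, Eif3a, its largest subunit, had 10.9, 7.96, 35.4 and 18.7. Eif3e was called in WT mESCs alone at 4.16 and went from 15.4 to 8.09 in MEFs. Eif3d had 5.84 and 3.11 in mESCs and 24.8 and 17.7 in MEFs. In contrast Eif3g had 2.02 and 4.26 in mESCs, the highest log2 ratio of the members there at 1.08, but its WT peak was weak and did not pass a -log10 q of 3. Eif3k was absent from the mESC lists and had 6.14 in WT and 9.89 in KO MEFs. Subunits of 1 complex therefore had KO to WT ratios on either side of zero in both cell types.

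Other genes of the pathway were taken from a list set with the members. Of 10 genes of elongation, termination and recycling, 3 had a higher fold in KO MEFs and 7 a lower one, close to the 32.5% of all genes that were higher, and in mESCs 3 were higher and 6 lower. Of 7 genes of the stress response, 1 had a higher fold in KO MEFs and 6 a lower one, with a median log2 ratio of -0.76, while in mESCs 3 were higher and 3 lower, with a median of 0.14. The ATF4 target Trib3 had 3.22 in WT mESCs and no call in KO, and 30.5 and 9.57 in MEFs, while Asns, the asparagine synthetase, had 9.18 and 4.87 in mESCs and 15.4 and 8.63 in MEFs. Ddit3 (CHOP) had 38.3 and 20.6 in MEFs but 5.85 and 7.85 in mESCs. Atf4 itself was higher in KO mESCs, 11.4 against 15.9, as was Ppp1r15b, which encodes a subunit of the eIF2 phosphatase, 2.57 against 5.03. The stress genes thus lay on both sides in mESCs.

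Pol II peaks beyond 1000 bp into the gene were fewer in KO. In mESCs 35 members had a body peak in WT, beside 20.9% of all genes, and 16 in KO, beside 13.6%. In MEFs 58 had one in WT, beside 42.2%, and 43 in KO, beside 33.9%. The summed number of body peaks was 58 and 28 in mESCs and 232 and 130 in MEFs, with fewer in KO at 33 members, more at 10 and equal numbers at 43 in MEFs. In MEFs 24.6% of all genes, and 37.2% of those called at the promoter in both genotypes, had fewer in KO, beside 38.4% of members. In mESCs 25 members had fewer in KO, 4 more and 57 equal numbers. There 13.8% of all genes, and 21.9% of those called at the promoter in both genotypes, had fewer, beside 29.1% of members. These differences were not tested. The KO Pol II lists were also the shorter ones over the genome. Eif3a went from 14 body peaks in WT to 3 in KO MEFs, Gars from 11 to 1, Aars from 10 to 3, Nars from 8 to 0 and Iars from 7 to 0. A promoter peak that reaches past 1000 bp is counted too. The 1 peak of Gars in KO MEFs is such a promoter peak, and the Aars counts include such a peak in each genotype. Eif1a kept 11 and 12, and Yars had 9 and 11. In mESCs Eif4ebp1 had the highest numbers, 5 and 4.

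H2Bub1 covered far more of these genes than of the average gene, and more in KO. The covered share is the percentage of the gene, from TSS to end of the record, inside H2Bub1 peaks. In WT mESCs 78 members had any such peak, beside 55.7% of all genes, and 82 in KO, beside 62.1%. In MEFs there were 64 in WT, beside 31.7%, and 83 in KO, beside 54.3%. The members' median was 32.3% in WT mESCs against 47.4% in KO, while it was 1.31% and 6.66% over all genes. In MEFs it was 17.1% in WT and 57.4% in KO, against 0% and 6.37%. All genes called at the promoter in both genotypes had medians of 19.8% and 43.1% in mESCs and of 2.45% and 51.5% in MEFs, so the members were above such genes in the WT lists. At a -log10 q of at least 3 the members' WT medians were 2.07% in mESCs and 0% in MEFs.

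The share was higher in KO at 66 members in mESCs, beside 54.2% of all genes, and at 83 members in MEFs, beside 53.8%. It was lower at 16 members in mESCs and at none in MEFs. Restricted to genes called at the promoter in both genotypes, 41 of 54 members were higher in KO mESCs, beside 84.7%, and 82 of 83 in KO MEFs, beside 93.3%. In mESCs that is a smaller share of members than of other genes with Pol II, a difference that was not tested, and in MEFs nearly every such gene was higher. The median difference was 8.56 percentage points in mESCs and 31.2 in MEFs. Restricted to genes called at the promoter in both genotypes, it was 9.93 and 31.9 over members, beside 12.0 and 34.5 over all such genes. These counts carry the longer H2Bub1 lists of KO cells. With the same number of peaks in WT and KO, 64 members were higher and 18 lower in mESCs, and 83 and 0 in MEFs.

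**Figure D3:**
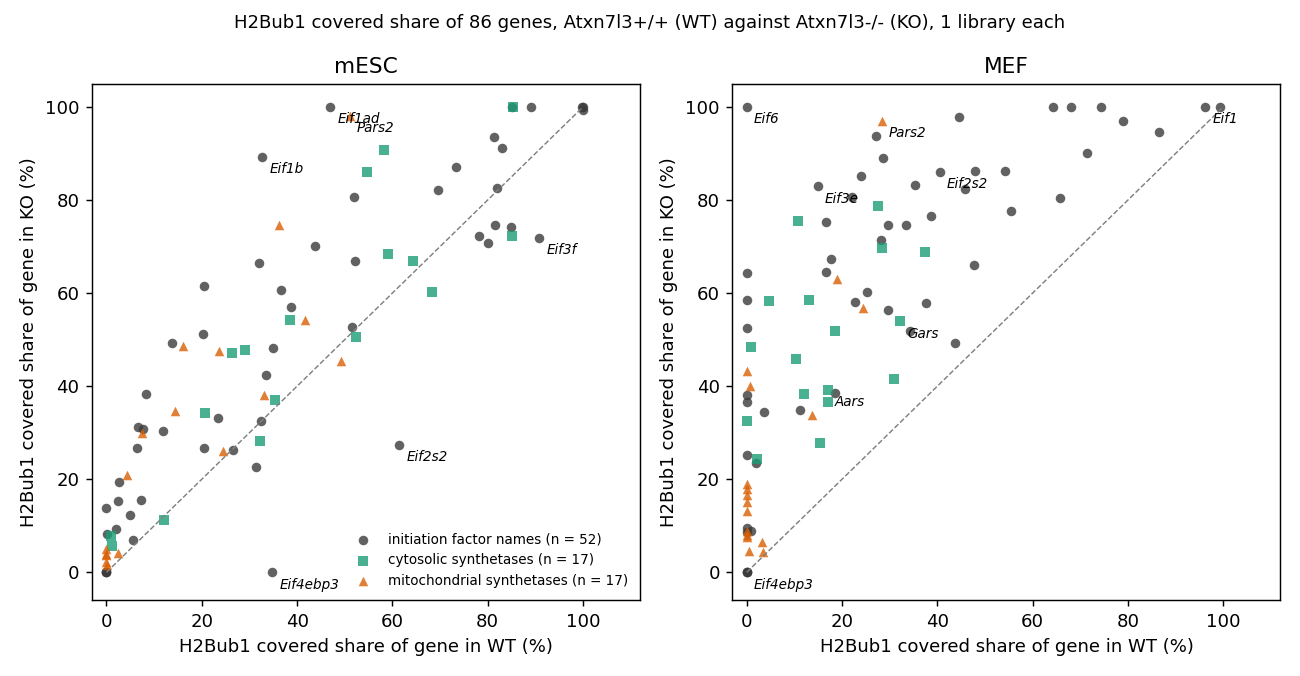
H2Bub1 covered share of each of the 86 members in WT (x axis, percent of gene) and KO (y axis), in mESCs on the left and MEFs on the right, with 1 library per group and symbols for the 3 classes. In MEFs 83 points lie above the dashed line of equal shares and none below, whereas in mESCs 16 lie below, with Eif2s2 and Eif4ebp3 farthest.

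By role, H2Bub1 in WT MEFs had a median share of 44.8% on the cap-binding factors, 41.2% on the 4 eIF4E regulators, 35.7% on the 2 eIF5A genes, and 29.6% and 29.1% on scanning and eIF3 genes. It was 15.3% on cytosolic synthetases and 0% on mitochondrial ones, of which 8 of 17 had a peak. It was also 0% on eIF2B, with a peak at 2 of 5 genes, against 38.5% in KO MEFs. In KO MEFs all 17 mitochondrial genes had a peak, but the median share was 16.6%, against 48.5% for cytosolic synthetases, 75.9% for eIF3 and 85.1% for scanning genes. In mESCs the mitochondrial genes were also lowest among the larger roles, with 14.4% in WT and 30.0% in KO. The eIF2 kinases had 6.38% and 13.9% in mESCs and 6.53% and 29.2% in MEFs. A longer gene had a smaller share, with a Spearman rho across members of -0.51 for WT and -0.49 for KO mESCs, and of -0.21 for WT and -0.32 for KO MEFs (n = 86, points of each list from 1 library, given as a description).

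In MEFs Eif6 (chr2:155819832-155826925, minus strand) went from no H2Bub1 peak in WT to a share of 100% in KO, the largest difference of all members. That KO peak ran past both ends of the gene. Its share was 31.9% and 66.5% in mESCs. Pars2, the mitochondrial proline enzyme, had 51.0%, 98.0%, 28.3% and 97.0% in WT mESCs, KO mESCs, WT MEFs and KO MEFs. At a -log10 q of at least 3 the Pars2 differences grew from 47.0 to 98.0 points in mESCs and from 68.7 to 97.0 in MEFs, so its WT shares depend on the threshold. Eif3e had 2.73%, 19.4%, 14.9% and 82.9%. Eif2b5 had no H2Bub1 in WT MEFs and 25.1% in KO, but 80.2% and 70.7% in mESCs. Eif1 was covered over 100%, 100%, 96.2% and 100% of its length, leaving no room for a difference. Eif4e had 38.7%, 57.0%, 55.5% and 77.6%, Eif5a 89.0%, 100%, 71.3% and 90.2%, and Eif2s1 20.4%, 26.6%, 22.1% and 80.7%. In mESCs the largest differences upwards were at Eif1b, from 32.7% to 89.3%, and at Eif1ad, from 47.0% to 100%.

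Along the gene, the KO difference was larger towards the 5′ end in mESCs and reached the last segment in MEFs. In mESCs the first of 4 equal segments of the gene was covered over 45.2% on average in WT against 71.6% in KO, with 66 members higher in KO and 3 lower (76.7% and 3.49%). Among genes called at the promoter in both genotypes 79.6% were higher and 4.68% lower there, with means of 44.5% and 70.9%, close to the members. The second segment had 33.9% and 50.7%. The third had 32.8% and 34.2%, and the last 32.8% and 31.0%, with 28 members higher and 28 lower. Over the 5663 genes called at the promoter in both genotypes, the last segment had 25.2% in WT and 31.8% in KO. There 40.2% of those genes were higher in KO and 19.7% lower, beside 32.6% and 32.6% of members. In MEFs the first segment had 42.8% and 80.2% and the last 8.37% and 29.6%, with 37 members higher and 5 lower at the last. Over the 10576 MEF genes with Pol II the last segment had 5.38% and 27.7%, with 47.7% of genes higher and 1.80% lower, beside 43.0% and 5.81% of members. With equal numbers of peaks the mESC values of the last segment were 32.8% and 29.4%, with 24 members higher and 30 lower. At a -log10 q of at least 3, in contrast, the third mESC segment had 13.2% in WT and 22.8% in KO and the last 12.5% and 16.4%, with 14 members higher and 11 lower.

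**Figure D4:**
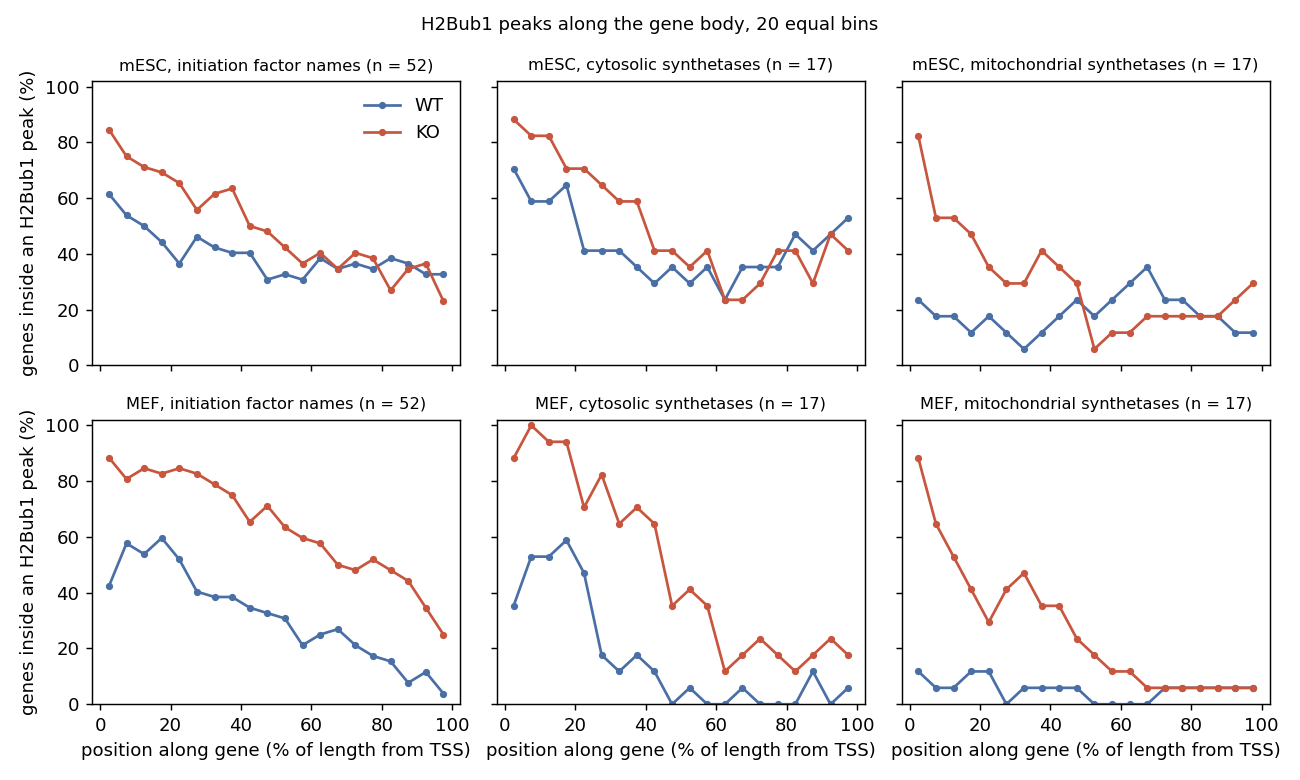
Percentage of genes that lie inside an H2Bub1 peak in each of 20 equal bins from the TSS to the end of the gene, for mESCs (top) and MEFs (bottom) and for initiation factor names, cytosolic and mitochondrial synthetases, WT in blue and KO in red. In mESCs the lines part over the 5′ portion and run together or cross towards the 3′ end, and in MEFs the KO line of initiation factors stays above WT in all 20 bins.

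The start itself was inside an H2Bub1 peak at 40 members in WT mESCs and 68 in KO, and at 12 in WT MEFs and 67 in KO. The shares of members in mESCs were thus 46.5% and 79.1%, and those in MEFs 14.0% and 77.9%, beside 48.5% and 83.2%, and 6.92% and 69.0%, of genes called at the promoter in both genotypes. In MEFs the means of the classes differed at the far end of the gene, which was not tested. On average the last segment of mitochondrial synthetases was covered over 6.02% in WT and 5.88% in KO, with no member higher in KO. These means came from Pars2, covered over 100% of that segment in both genotypes, and Lars2, with 2.26% in WT, all others being at 0. At a -log10 q of at least 3 the means were 0.133% and 5.88%, with 1 member higher and 1 lower. The last segment of cytosolic synthetases had means of 4.36% and 18.7%, but medians of 0% in both genotypes, as mitochondrial ones had. There 6 cytosolic members were higher in KO (35.3%), 2 lower and 9 equal, beside 47.7% of MEF genes with Pol II higher. Qars and Mars had 100% and 97.8% in KO. Initiation factor names had means of 10.5% and 40.9% and medians of 0% and 27.0%, with 31 higher (59.6%) and 2 lower.

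Members with less H2Bub1 in KO mESCs had the difference in different segments of the gene. Eif2s2 went from 61.4% to 27.4% of its length in mESCs, but from 40.5% to 86.1% in MEFs, and in mESCs its 4 segments went from 82.6% to 77.1%, 72.1% to 23.1%, 44.1% to 9.35% and 46.7% to 0%. At Eif3f the share went from 90.8% to 71.8%, with the last segment going from 66.0% to 0%, and at Eif4a1 from 84.9% to 74.3%, with the last segment going from 39.8% to 0%. Aars had 85.1% and 72.3% in mESCs, with segment 2 at 100% and 77.3% and segment 3 at 79.3% and 48.8%. In MEFs Aars had 17.0% and 39.2%, where its first segment went from 28.6% to 89.6%. The largest mESC difference downwards was at Eif4ebp3, from 34.8% to 0%, which did not have a peak in either genotype at a -log10 q of 3. Pol II and H2Bub1 thus did not keep 1 direction at a gene: Eif2s2 had more Pol II at its promoter and less H2Bub1 in KO mESCs, and Aars in KO MEFs less Pol II and more H2Bub1. Across members the log2 Pol II ratio and the H2Bub1 difference had a Spearman rho of -0.19 in mESCs (n = 54) and 0.22 in MEFs (n = 83), given as a description of genes from the same libraries.

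**Figure D5:**
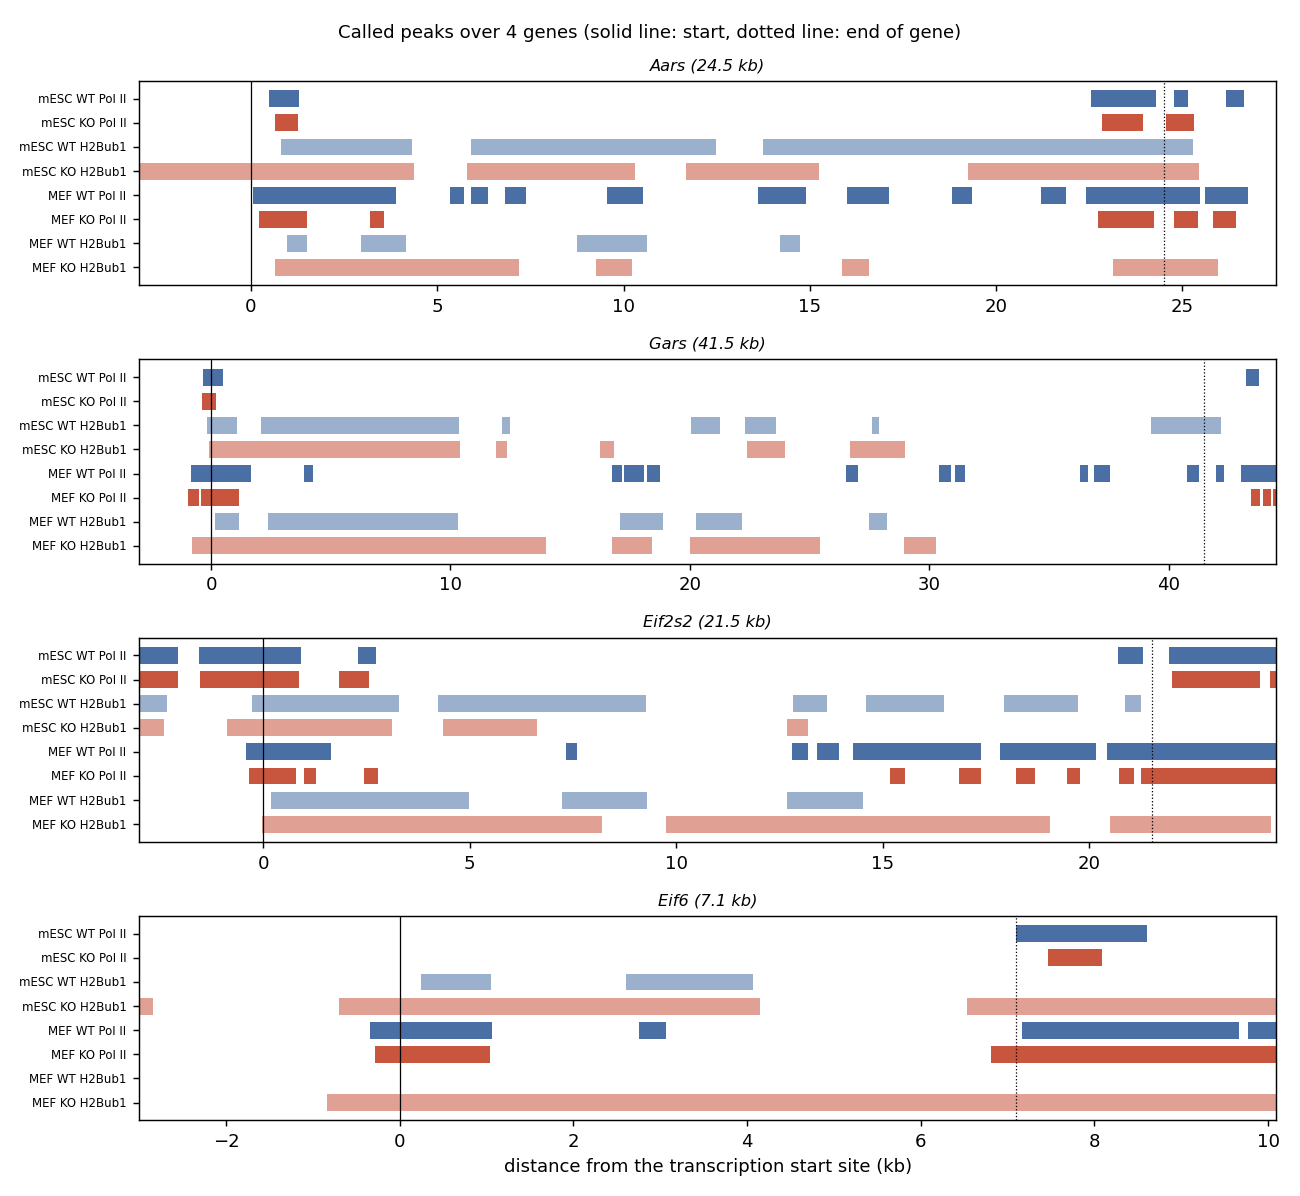
Called peaks over Aars, Gars, Eif2s2 and Eif6, drawn by distance from the TSS in kb with the gene's end as a dotted line, 1 row per library (Pol II in full colour, H2Bub1 in light colour, WT blue and KO red). In KO mESCs the H2Bub1 peaks of Eif2s2 stop 13188 bp from the TSS, short of the gene's end, and most of the 10 and 11 Pol II body peaks of Aars and Gars in the WT MEF row are missing from the KO MEF row.

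Genes close to others limit these readings. At 20 members another protein-coding TSS lay within 1000 bp, and 23 overlapped another protein-coding gene, so a peak there may belong to the neighbour. Of the 25 members at least 5000 bp from any other gene, 24 had a higher H2Bub1 share in KO MEFs and 17 of 24 a lower Pol II fold, and in mESCs 16 had a higher H2Bub1 share in KO and 7 a lower one.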

How the data were processed

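Pol II and H2Bub1 were read from 8 deposited peak lists, 1 per group, in which the authors called peaks in each library separately. Reads had been aligned to mm10 with Bowtie 1.0.0 and peaks called with MACS2 2.1.1.20160309, per the submitters' processing notes. The deposited fold is each peak's linear ratio over local background, and the authors also give a score, the −log10 p and −log10 q of each peak and, in the narrow Pol II lists, the summit offset from the peak start. How the depth correction described in the methods entered the calls is not given in the sources used here.

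Peaks were set against GENCODE M21 with a minimum overlap of 1 bp. The promoter spanned 1000 bp before and after the start of the GENCODE record, and its fold was that of the highest peak. Intervals of medians are exact binomial intervals over genes at 95% and do not describe replicate error, which is unknown with 1 library per group. Members and gene lists were chosen with earlier results of these data known. Genes were named by rule: promoter calls in 1 genotype, the 3 highest and 3 lowest Pol II ratios and the 3 largest differences of H2Bub1 in either direction per cell type, calls in 1 cell type, the most body peaks, and a fixed list by role; other genes named, the split of genes into 4 segments and the promoter motifs were chosen after values were seen. The alternatives tried were lists cut to equal peak numbers, a −log10 q of 3 or more, a promoter of 100 bp upstream to 300 bp downstream, summits inside the window, any annotated TSS, members at least 5000 bp from another gene, and members without kinases, regulators and paralogs. The functions were tested on simulated data. Computing used Python 3.11.15, numpy 2.4.6, pandas 2.3.3, SciPy 1.17.1 and matplotlib 3.10.9. Inputs and libraries of Pol II phosphorylated at serine 2 were not analysed here. For 1 of the members, which is counted but not named, no value of its own is reported here.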

Additional observations from a re-analysis of the deposited data

Results flagged for a closer look

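At 4 members the H2Bub1 covered share was at least 10 percentage points lower in KO mESCs and at least 10 points higher in KO MEFs, opposite directions that were not tested. Over all genes 1.32% met the same rule, and 2.80% of those with a Pol II promoter peak in all 4 lists, beside 4.65% of members. The difference, KO minus WT, was -34.0 points in mESCs and 45.6 in MEFs at Eif2s2, -18.9 and 20.2 at Eif3f, -12.8 and 22.2 at Aars, and -10.7 and 35.6 at Eif4a1. No member had Pol II promoter ratios beyond 0.5 on the log2 scale in opposite directions.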

How the results depend on the processing

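With a −log10 q of at least 3, the median H2Bub1 covered share of members went from 32.3% to 2.07% in WT mESCs, from 47.4% to 26.1% in KO mESCs and from 17.1% to 0% in WT MEFs, so the levels depend on the peak threshold; the direction from WT to KO did not change in either cell type, with 66 members higher in KO and 11 lower in mESCs and 81 and 0 in MEFs. The other 81 values of the main counts and medians under the 7 alternatives stayed within 1.5 times the reported count or inside the interval of the reported median, and none changed sign where that interval left out 0. Of 84 values for single named members, 6 moved and none changed sign. Ratios whose promoter call was lost under an alternative are not among these values. This was so for Eif3g in mESCs at a −log10 q of at least 3 and with equal peak numbers. It was also so for Eif4ebp3 in MEFs under the summit rule. The narrow promoter and the summit rule do not touch some H2Bub1 and body counts and gave no value there. No paired analysis was possible because each group holds 1 library.

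Read depth is unknown, so the number and width of peaks per library set what can be seen, and a gene without a peak was below the threshold, not without signal. A fold is relative to the background of its own library and gives no absolute change. Genotype, embryo and culture cannot be told apart.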
